A study of Mus musculus with 2 samples.

Results

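Heat-shock proteins and DnaJ proteins were examined by spatial transcriptomics (ST) in mouse liver. The genes were chosen by symbol alone: Hspa, Hspb, Hspd, Hspe or Hsph with a further number or letter, Hsp90 with any ending, and Dnaja, Dnajb or Dnajc with a number. This took 68 of the 19465 genes in the deposited feature list. At least 1 unique molecular identifier (UMI, which marks 1 captured probe) was found for 62 of them in the AEG-1ΔMAC liver and for 64 in the AEG-1fl/fl liver. Levels are given as UMIs per 1000000 UMIs of the library (CPM). A mean level of 10 CPM or more over both livers was reached by 43 genes, and ratios are given for these unless stated. They were 20 of 34 genes whose proteins work in the cytosol and nucleus, 13 of 14 genes of the endoplasmic reticulum (ER), 5 of 6 genes of mitochondria and 5 of 14 genes of another or no assigned location. Hspa8 and Hsp90ab1, which encode the constitutive cytosolic HSP70 and HSP90, and Dnaja3, Dnajc8, Dnajc17 and Dnajc19 are not in the feature list and were not analysed here.

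Chaperones keep proteins folded. An HSP70 protein binds and releases an unfolded stretch at the cost of ATP, a DnaJ protein brings the substrate and switches on the ATPase of HSP70, HSP110 proteins exchange its nucleotide, HSP90 completes the folding of kinases and steroid receptors, small heat-shock proteins hold unfolded chains without ATP, and the HSP60/HSP10 chaperonin folds proteins inside mitochondria. Heat-shock factor 1 switches on the cytosolic set after proteotoxic stress, whereas the unfolded protein response switches on the ER set, which hepatocytes need for the large amounts of plasma protein they secrete.

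The ST data came from formalin-fixed, paraffin-embedded sections of 2 livers measured on the Visium platform, with 1 library per genotype. The AEG-1ΔMAC mouse had the floxed AEG-1 gene (Mtdh) removed by Cre recombinase from the Lyz2 locus, which acts in myeloid cells and leaves the gene in hepatocytes, and the AEG-1fl/fl littermate carried the same floxed alleles. The floxed line was made on a C57BL/6/J background. By the sample labels both mice, aged 27 weeks, had received HF/HSD, a diet rich in fat and sugar, for 20 weeks from the age of 7 weeks. The paper describes the livers used for ST as coming from mice on a control diet (CD), so the diet was left unsettled, and the labels give no sex. Without replicates no test was possible: every interval below covers counting error in 1 library or 1 pair of libraries, and the variation between mice is unknown. A spot covers several cells, so that fewer cells of a type and less RNA per cell cannot be told apart.

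With the limits on UMIs and detected genes that the study states, the AEG-1ΔMAC section kept 2140 of 2149 deposited spots and 45453286 UMIs with a median of 20929.5 UMIs per spot, and the AEG-1fl/fl section kept 2540 of 2543 spots and 50322850 UMIs with a median of 18285. The libraries shared 1782 barcodes, which are array positions. Mtdh stood at 66.3 CPM in the AEG-1ΔMAC liver and 60.2 CPM in the AEG-1fl/fl liver, and Lyz2 had 25 and 41 UMIs, so that whole spots give no check of a deletion in myeloid cells. Alb, which encodes albumin, made up 8.80% of the UMIs from the AEG-1ΔMAC liver and 14.2% of those from the AEG-1fl/fl liver. The 6933 genes that passed the minimum of 10 CPM had a median log2 ratio (AEG-1ΔMAC over AEG-1fl/fl) of 0.15, and with the 50 most abundant genes left out of the totals this median was 0.00. Ratios between the livers are therefore read against the median of all genes. Genes of the circadian clock and of acute signalling also differed (Dbp, log2 ratio 2.76; Dusp1, 2.11; Nr1d1, 1.42; Egr1, -1.63), and their part in the results below was not tested.

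The promoters of these genes show what the heat and ER stress sets share in sequence. RefSeq promoter windows (GRCm38.p6, 250 bases before to 50 after each start) were found for 56 of the 68 genes. They were searched on both strands for the 2-unit heat-shock element, GAANNTTC or TTCNNGAA, for the 3-unit element, which is one of these followed by NNGAA or NNTTC so that the units alternate, and for the ER stress element, which is CCAAT and CCACG with 9 bases of any kind between them. The 2-unit element was present for 7 of 9 heat-inducible members (77.8%), for 12 of 30 cytosolic and nuclear members (40.0%), and for 1 of 12 ER members (8.33%), beside 15.4% of the 15061 listed genes with a window. The 3-unit element was found for 4 of the 56 members (7.14%) and 0.571% of all genes, and the ER stress element for 3 of 6 ER stress-inducible members and 0.159% of all genes. Hspd1 and Hspe1 are among these 4 members and among the 7 heat-inducible members above. Their windows overlap, and the matches of both are the same site read from either strand, so they are not independent. A match describes letters and does not show that a factor binds.

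The next stretches are the 150 bases before a start of some members named in the zonation and genotype results. Each is shown at a start that has a heat-shock element match. They are written 5′ to 3′ on the strand of the gene, with the matched element in capitals. Hspe1 (chr1:55087998-55088147, plus strand) stands next to Hspd1, which is read from the other strand, and its 3 overlapping 2-unit matches begin at -89, -84 and -79 from the start. Hspa1b (chr17:34959239-34959388, minus strand) has its match at -104, Dnaja1 (chr4:40722318-40722467, plus strand) at -124 of the upstream start, and Hspb6 (chr7:30553151-30553300, plus strand) at -120 of the downstream start. The windows of the other starts of Dnaja1 and Hspb6 hold no match. Hspb8, which is not shown, has its match at 2, after the start, and none in the 150 bases before it.
Hspe1: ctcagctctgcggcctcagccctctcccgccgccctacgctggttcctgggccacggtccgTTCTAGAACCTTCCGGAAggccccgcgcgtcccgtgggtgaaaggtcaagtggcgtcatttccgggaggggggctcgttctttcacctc
Hspa1b: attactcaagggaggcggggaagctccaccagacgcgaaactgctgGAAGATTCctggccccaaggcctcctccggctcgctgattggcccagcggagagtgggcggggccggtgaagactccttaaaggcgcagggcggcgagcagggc
Dnaja1: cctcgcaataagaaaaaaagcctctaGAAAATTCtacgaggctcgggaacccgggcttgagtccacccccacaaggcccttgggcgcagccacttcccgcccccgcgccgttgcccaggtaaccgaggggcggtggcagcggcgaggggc
Hspb6: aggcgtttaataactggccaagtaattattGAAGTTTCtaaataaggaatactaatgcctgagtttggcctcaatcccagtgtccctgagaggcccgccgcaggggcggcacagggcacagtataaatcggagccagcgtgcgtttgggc

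The ER stress element is shown for Hspa5 (chr2:34771940-34772089, plus strand), where it begins at -65, and for Hsp90b1 (chr10:86705445-86705594, minus strand), where the match at -107 reads on the opposite strand. The stretch of Dnajb9 (chr12:44210069-44210218, minus strand) is given for comparison, since its letters do not contain the element.
Hspa5: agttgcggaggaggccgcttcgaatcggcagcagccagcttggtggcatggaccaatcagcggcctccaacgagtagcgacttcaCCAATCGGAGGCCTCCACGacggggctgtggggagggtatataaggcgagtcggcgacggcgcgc
Hsp90b1: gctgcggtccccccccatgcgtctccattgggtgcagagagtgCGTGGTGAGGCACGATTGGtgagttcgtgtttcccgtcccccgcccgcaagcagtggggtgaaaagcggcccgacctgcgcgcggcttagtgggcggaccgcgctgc
Dnajb9: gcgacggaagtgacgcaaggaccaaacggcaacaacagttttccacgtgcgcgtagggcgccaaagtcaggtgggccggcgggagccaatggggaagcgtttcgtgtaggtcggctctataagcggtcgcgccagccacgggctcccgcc

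The 68 genes together took 0.399% of all UMIs in the AEG-1ΔMAC liver and 0.353% in the AEG-1fl/fl liver. Probes differ in how well they bind, so the order of genes by CPM is not an order of expression, and each gene is compared only with itself. In the cytosol and nucleus set the levels of tested genes ran from 10.9 to 229 CPM, in the ER set from 12.2 to 867 CPM and in the mitochondria set from 38.6 to 423 CPM. More than 100 CPM on average were counted for 8 genes: Hsp90b1, Hspa5, Dnajc3 and Dnajb11 of the ER, Hspa9 and Hspd1 of mitochondria, and Hspb8 and Dnaja2 of the cytosol. For 13 of the 43 genes the Poisson 95% intervals of both livers overlapped. This count is not set beside that of all genes. Overlap on CPM depends on the UMIs of a gene and on the shift of all genes, so no difference is read from this count.

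**Figure D1:**
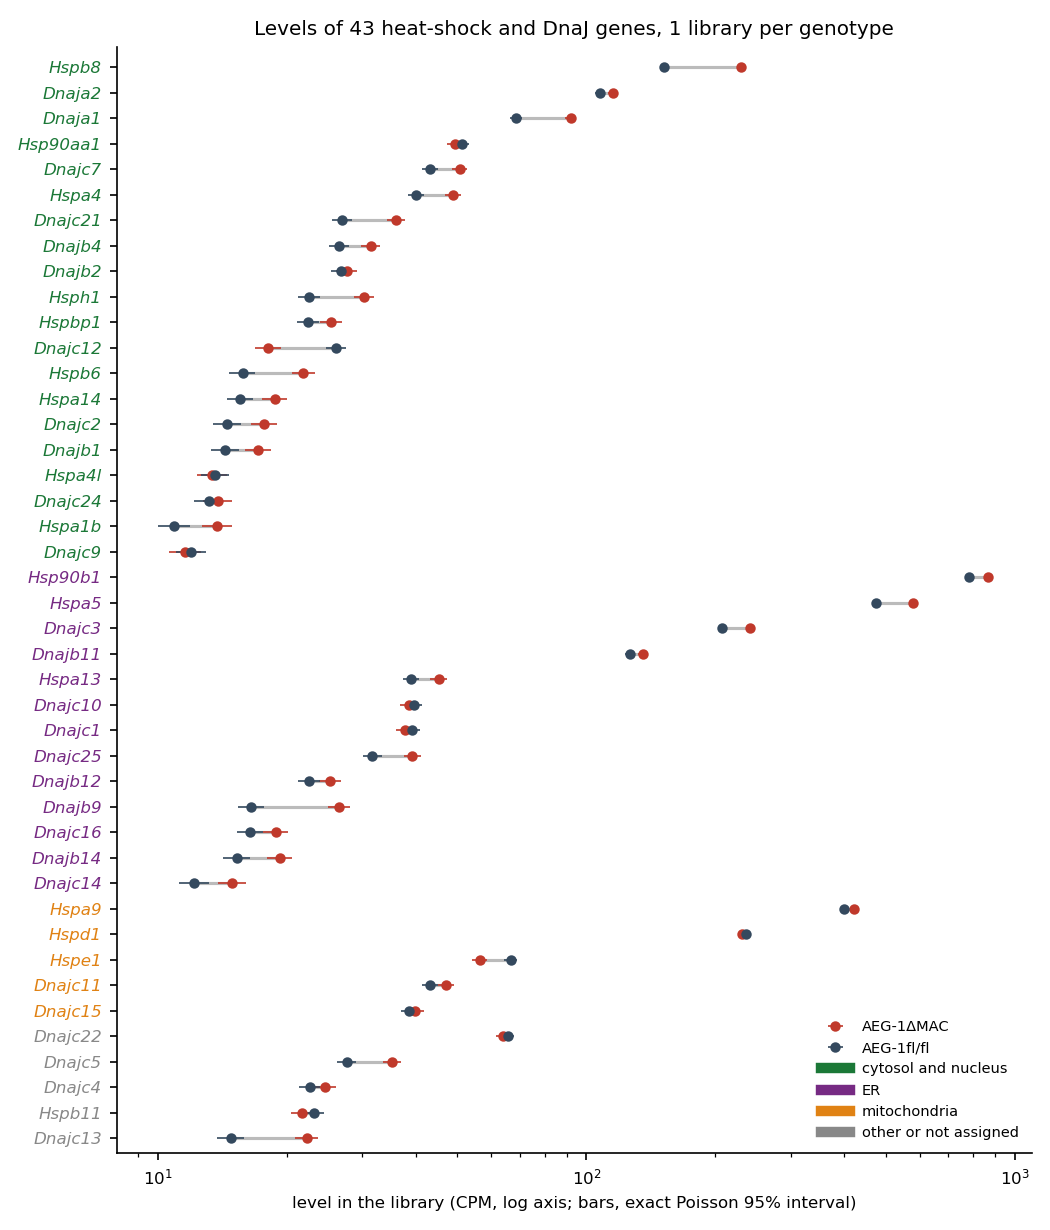
Level of each of the 43 genes (CPM, log axis) in the AEG-1ΔMAC (red) and AEG-1fl/fl (dark blue) liver, 1 library each, with bars for the exact Poisson 95% interval and gene names coloured by compartment. Most pairs lie close together, and the widest gaps are those of Dnajb9, Hspb8, Dnajc13 and Dnajc12.

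The livers differed little in the chaperone set as a whole. The median log2 ratio of the 43 members was 0.20 (range -0.53 to 0.68), which is 0.05 above the median of all genes. Relative to that median, 0 members were at least 1.5-fold higher in AEG-1ΔMAC with an interval on the same side (2.38% of all 6933 genes were), and 1 member, Dnajc12, was at least 1.5-fold lower (2.77% of all genes). On CPM alone the count of higher members was 3, Dnajb9, Hspb8 and Dnajc13 (4.3% of all genes), and that of lower members 0 (1.79%). At a minimum of 2-fold 0 members passed in either direction, both relative to the median (0.938% of all genes higher, 0.736% lower) and on CPM alone (1.27% and 0.519%). With the interval alone as the rule and no minimum fold, 14 members lay above the median of all genes (28.1% of all genes) and 12 below it (28.2%).

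**Figure D2:**
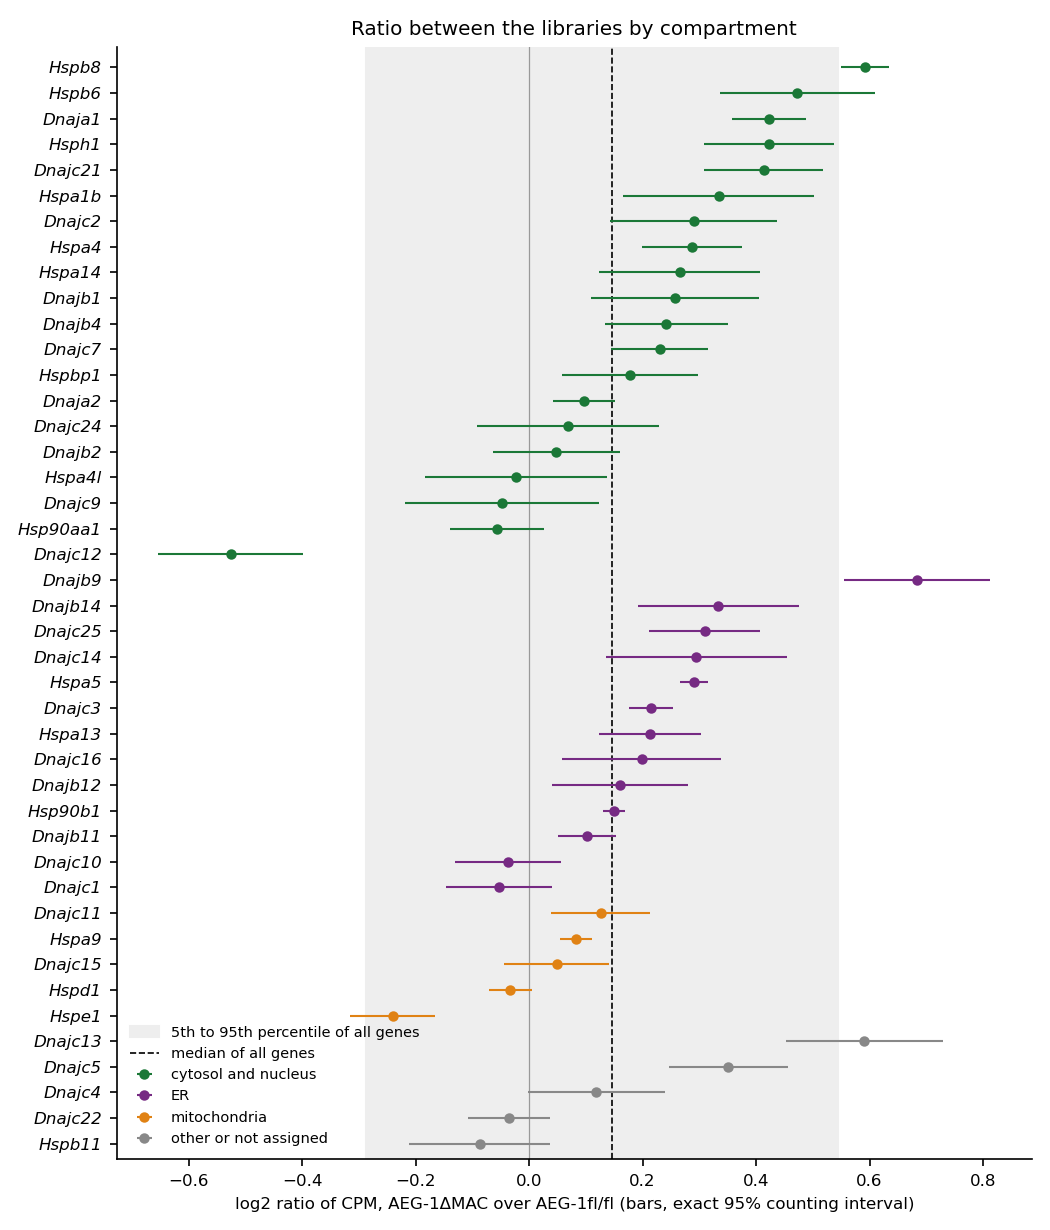
Log2 ratio between the levels (CPM) of AEG-1ΔMAC and AEG-1fl/fl for the 43 genes by compartment, with exact 95% counting intervals, the median of all genes (dashed line, 0.15) and the range from the 5th to the 95th percentile of all genes (grey band). All 5 mitochondria genes lie left of the dashed line, and 10 of 13 ER genes and 13 of 20 cytosol and nucleus genes lie right of it.

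The compartments fell on different sides of that median. Of the ER genes 10 of 13 lay above the median of all genes, with a median log2 ratio of 0.21, and of the cytosol and nucleus genes 13 of 20, with a median of 0.25. All 5 mitochondria genes lay below it, with a median of 0.05. As summed levels over all listed genes of a compartment, the log2 ratio was 0.28 (95% interval 0.26 to 0.30) for the cytosol and nucleus, 0.20 (0.18 to 0.21) for the ER and 0.03 (0.00 to 0.05) for mitochondria. These sums are not relative to the median of all genes (0.15), and the most counted genes weigh most. In the cytosol and nucleus sum, Hspb8 alone gave 229 of 905 CPM in AEG-1ΔMAC and 152 of 744 CPM in AEG-1fl/fl. Hsp90b1 (867 and 782 CPM) and Hspa5 (579 and 474 CPM) made up most of the ER sums of 2094 and 1827 CPM. With 1 liver each, the differences by compartment are differences between 2 libraries.

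Among the small heat-shock proteins, Hspb8 (chr5:116408491-116422864), which works with BAG3 in the removal of damaged proteins, was counted at 229 CPM in the AEG-1ΔMAC liver and 152 CPM in the AEG-1fl/fl liver. Its Poisson intervals (225 to 234 and 149 to 156) did not overlap, and the log2 ratio was 0.59 (0.55 to 0.63). Hspb6 (chr7:30552178-30555443), also called HSP20, was at 21.9 CPM and 15.8 CPM, with a log2 ratio of 0.47 (0.34 to 0.61). They stood at percentiles 95.8 and 92.9 of the ratios of all genes.

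HSP70 proteins of the cytosol and their helpers lay on both sides of the median of all genes. Hspa1b (chr17:34956436-34959238), the stress-inducible HSP70, was at 13.8 CPM in the AEG-1ΔMAC liver and 10.9 CPM in the AEG-1fl/fl liver, with a log2 ratio of 0.33 (0.17 to 0.50). Hspa1a, a near-identical copy, was counted at 27 and 17 UMIs, and the probe counts may not fully tell the pair apart. Dnaja1 (chr4:40722150-40737149), a DnaJ partner of cytosolic HSP70, was at 91.9 and 68.6 CPM, with a log2 ratio of 0.42 (0.36 to 0.49). Hsph1, the heat-inducible HSP110, was at 30.2 and 22.6 CPM (log2 ratio 0.42, 0.31 to 0.54), and the other HSP110 genes Hspa4 and Hspa4l had ratios of 0.29 and -0.02. Dnajb1, a DnaJ protein that is strongly heat inducible, had a ratio of 0.26 (0.11 to 0.40), Dnajb4 of 0.24, Dnajc7 of 0.23 and Dnaja2 of 0.10. Below the median of all genes, with Hspa4l and Dnaja2, were also the J proteins Dnajc24 (0.07), Dnajb2 (0.05) and Dnajc9 (-0.05).

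Heat-inducible genes did not share a direction. Hsp90aa1, the inducible cytosolic HSP90, was at 49.3 CPM in the AEG-1ΔMAC liver and 51.3 CPM in the AEG-1fl/fl liver, with overlapping intervals and a log2 ratio of -0.06 (-0.14 to 0.03). Of the 8 tested heat-inducible members 4 lay above the median of all genes, and their median log2 ratio was 0.12. Heat-inducible genes outside the DnaJ and HSP families also went both ways, with 2 of the 7 tested above the median of all genes, 5 below it and a median log2 ratio of 0.13. Fkbp4, an HSP90 co-chaperone, was the highest at 0.21, whereas Hmox1, heme oxygenase, stood at -0.73 and Serpinh1, the collagen chaperone HSP47, at -0.87.

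Dnajc12 (chr10:63382443-63410576), a DnaJ protein that is needed for the folding of aromatic amino acid hydroxylases such as phenylalanine hydroxylase, was the member furthest below the rest. It was counted at 18.1 CPM in the AEG-1ΔMAC liver and 26.1 CPM in the AEG-1fl/fl liver, and the intervals (16.9 to 19.4 and 24.7 to 27.5) did not overlap. The log2 ratio was -0.53 (-0.65 to -0.40), and by part of the lobule (zone 1, middle, zone 3, defined below) it was -0.71, -0.34 and -0.55.

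In the ER, Dnajb9 (chr12:44205559-44210326), a J protein partner of the ER HSP70 and a target of the unfolded protein response, had the highest ratio of all 43 members. It was at 26.5 CPM (25.01 to 28.0) in the AEG-1ΔMAC liver and 16.5 CPM (15.4 to 17.7) in the AEG-1fl/fl liver, with a log2 ratio of 0.68 (0.55 to 0.81), and it was higher in each of the 3 parts of the lobule, by 0.63, 0.85 and 0.56. Hspa5 (chr2:34771970-34777547), the ER HSP70 also known as BiP, was at 579 and 474 CPM, with a log2 ratio of 0.29 (0.27 to 0.32). The ratios of the other ER stress-inducible members were smaller: 0.21 for Dnajc3 and for Hspa13, 0.15 for Hsp90b1 (867 and 782 CPM), the ER HSP90, 0.10 for Dnajb11 and -0.04 for Dnajc10, a reductase with a J domain. Dnajc1, an ER membrane J protein that is not stress inducible here, stood at -0.05. Of the 7 ER stress-inducible genes 5 lay above the median of all genes.

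Other ER folding genes were mixed, with a median log2 ratio of 0.09 over 13 tested genes, of which 6 lay above the median of all genes. Xbp1, a transcription factor of the unfolded protein response, was at 205 and 113 CPM (log2 ratio 0.85, 0.81 to 0.90), and Hyou1, a large ER chaperone, had a ratio of 0.29. Pdia4, a disulfide isomerase, and Sdf2l1, a cofactor of BiP, had ratios of -0.23 and -0.25.

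The mitochondrial chaperonin was the lowest class. Hspe1 (chr1:55088132-55091307), the HSP10 lid, was at 56.4 CPM in the AEG-1ΔMAC liver and 66.6 CPM in the AEG-1fl/fl liver, with intervals that did not overlap and a log2 ratio of -0.24 (-0.31 to -0.17). Hspd1 (chr1:55077835-55088243), the HSP60 ring that shares its promoter region, was at 231 and 237 CPM, with overlapping intervals and a log2 ratio of -0.03 (-0.07 to 0.00). Hspa9, the mitochondrial HSP70, was at 423 and 399 CPM (log2 ratio 0.08), and the mitochondrial J proteins Dnajc11 and Dnajc15 had ratios of 0.13 and 0.05. On the list of mitochondrial chaperones and proteases, which includes the chaperonin pair, 5 of 11 genes lay above the median of all genes, from Clpb, a disaggregase, at 0.39 to Hspe1 at the low end.

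Members of other or no assigned location did not share a direction. Dnajc13, an endosomal J protein, was at 22.3 and 14.8 CPM (log2 ratio 0.59, 0.45 to 0.73), and Dnajc5, the cysteine string protein of secretory vesicles, at 35.2 and 27.6 CPM (0.35). Hspb11, a protein of intraflagellar transport despite its name, had a ratio of -0.09, Dnajc22 of -0.04 and Dnajc4 of 0.12.

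The lists of helper genes outside the chosen families had medians near that of all genes. The median log2 ratio was 0.15 for 11 HSP90 co-chaperones, 0.20 for 9 HSP70 co-chaperones and exchange factors, 0.15 for 13 subunits of the TRiC chaperonin and prefoldin, and 0.20 for the J proteins Sec63 and Gak. Fkbp5, an HSP90 co-chaperone that glucocorticoid induces, stood apart at 74.9 CPM in the AEG-1ΔMAC liver and 31.6 CPM in the AEG-1fl/fl liver (log2 ratio 1.24, 1.16 to 1.33). Hsf2, the only tested heat-shock factor, had a ratio of -0.06 (-0.18 to 0.07).

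For zonation, the spots of each library were ranked by a zone index, the level of Cyp2e1, Cyp1a2 and Oat (zone 3) minus that of Arg1, Cyp2f2, Gls2, Hal, Hsd17b13 and Pck1 (zone 1), and divided into 3 equal parts, periportal (PP, zone 1), middle and pericentral (PC, zone 3). The zone ratio is the log2 ratio of CPM, zone 3 part over zone 1 part. Landmark genes that did not enter the index were compared the same way. The 3 tested zone 3 landmarks had median zone ratios of 2.34 in the AEG-1ΔMAC liver and 2.31 in the AEG-1fl/fl liver, and the 6 zone 1 landmarks of -1.26 and -0.98, with 1 of the 6 above 0 in AEG-1fl/fl. Over all genes the median zone ratio was 0.09 in the AEG-1ΔMAC liver and 0.07 in the AEG-1fl/fl liver, and 69.0% and 68.0% of genes had a ratio above 0. The zone 3 index genes had a summed level 1.29 log2 units higher in AEG-1ΔMAC, so that equal parts of the 2 sections need not be equal places in the lobule.

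Most cytosolic and nuclear members leaned towards zone 3 in both livers. Their median zone ratio was 0.17 in the AEG-1ΔMAC liver and 0.20 in the AEG-1fl/fl liver, and 18 of 20 had a ratio above 0 in each (90%, beside 69.0% and 68.0% of all genes). At least 1.5-fold higher in zone 3 were Hspa1b and Hspb6 in both livers, 2 of 43 members, beside 2.97% of all genes in the AEG-1ΔMAC liver and 2.84% in the AEG-1fl/fl liver. At least 1.5-fold higher in zone 1 were 0 of the 43, beside 2.03% and 1.75% of all genes. The minimum of 2-fold towards zone 3 was passed by Hspb6 in AEG-1ΔMAC (1.07% of all genes) and by Hspa1b in AEG-1fl/fl (1.01%), and towards zone 1 by 0 members (0.808% and 0.433%). With the interval alone as the rule, 15 members were higher in zone 3 in AEG-1ΔMAC (31.4% of all genes) and 19 in AEG-1fl/fl (28.4%), and 4 were higher in zone 1 in AEG-1ΔMAC (10.4%), Dnajb11, Dnajb9, Hspa13 and Hspa5, against 3 in AEG-1fl/fl (9.23%), Dnajb9, Dnajc7 and Hspa5. Over the 43 members the zone ratios of both livers had a Pearson r of 0.80, and over all 6933 genes of 0.79, which describes genes and not replicates.

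**Figure D3:**
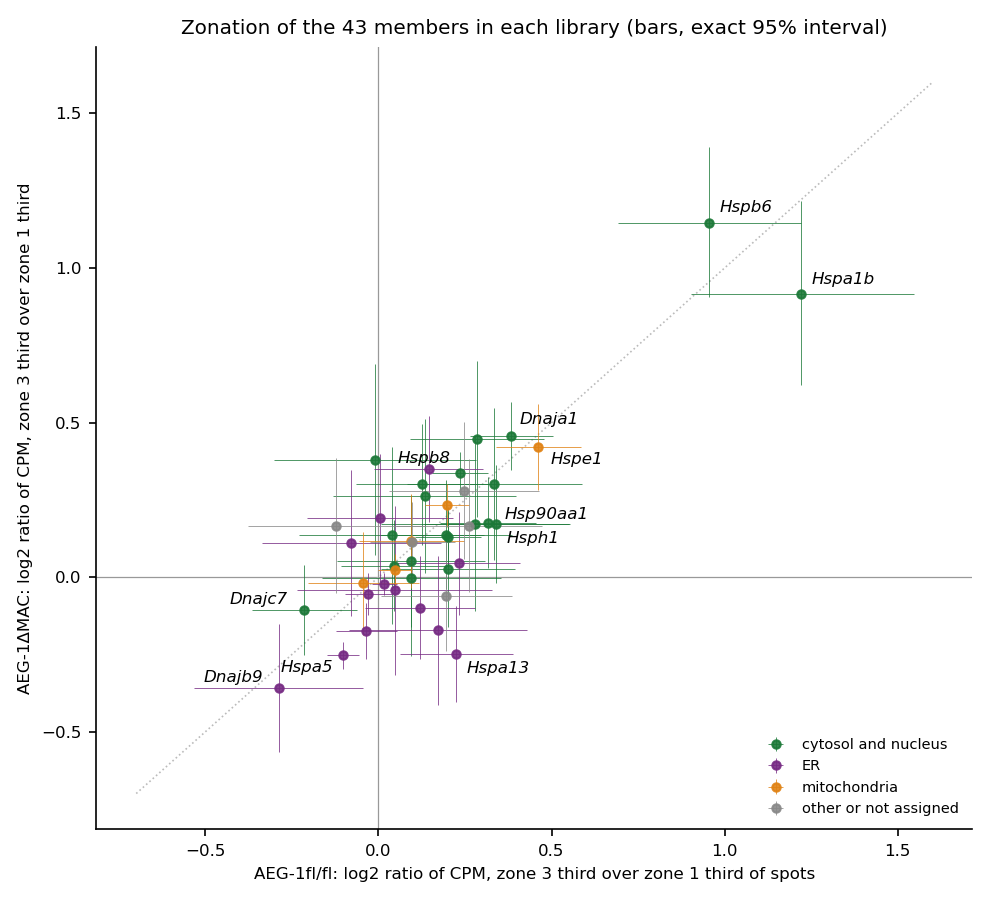
Zone ratio (log2 ratio of CPM, zone 3 part over zone 1 part of the spots) of the 43 genes in AEG-1fl/fl (horizontal) and AEG-1ΔMAC (vertical), with exact 95% counting intervals, coloured by compartment; the dotted line marks equal ratios. Hspb6 and Hspa1b stand apart at the upper right, and several ER genes (purple) lie below 0 in AEG-1ΔMAC.

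Hspb6 was counted at 13.5, 22.2 and 29.9 CPM in the zone 1, middle and zone 3 parts of AEG-1ΔMAC, and at 11.1, 14.9 and 21.4 CPM in those of AEG-1fl/fl. The level thus stepped up from part to part in both livers, with zone ratios of 1.15 (0.90 to 1.39) and 0.95 (0.69 to 1.22). Hspa1b was at 9.61, 13.5 and 18.1 CPM in AEG-1ΔMAC and at 7.07, 9.35 and 16.5 CPM in AEG-1fl/fl, with zone ratios of 0.92 (0.62 to 1.22) and 1.22 (0.90 to 1.55). In the tenth of spots nearest the zone 3 end Hspb6 reached 38.2 and 30.0 CPM, against 11.6 and 8.04 CPM in the tenth at the zone 1 end, and Hspa1b reached 23.3 and 22.6 CPM against 7.27 and 6.39 CPM.

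Below the minimum of 10 CPM, Hspb1, the small heat-shock protein known as HSP27, had 239 UMIs in the AEG-1ΔMAC liver and 248 in the AEG-1fl/fl liver. Its zone ratios were 1.11 (0.64 to 1.59) and 1.74 (1.22 to 2.29), and those of Dnaja4, a stress-inducible J protein counted at 163 and 122 UMIs, were 0.86 (0.30 to 1.44) and 1.07 (0.38 to 1.79). Both were thus higher in zone 3 beyond counting error in each liver.

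Among the tested heat-inducible members other than Hspa1b the zone ratios were smaller. Hspb6 and Dnaja4 are not counted in the heat-inducible set here. Dnaja1 was at 79.2, 88.2 and 109 CPM along the 3 parts in AEG-1ΔMAC and at 61.6, 64.2 and 80.4 CPM in AEG-1fl/fl (zone ratios 0.46, 0.35 to 0.57, and 0.38, 0.26 to 0.50). Hspe1 had zone ratios of 0.42 (0.28 to 0.56) and 0.46 (0.34 to 0.59), and Hspd1 of 0.23 (0.16 to 0.30) and 0.20 (0.13 to 0.26), so both chaperonin subunits were higher in zone 3 in both livers while Hspa9 was level (0.02 and 0.05). Hsp90aa1 was at 0.18 and 0.32 and Hsph1 at 0.17 and 0.34, and Dnajb1 showed no slope beyond its interval (0.00 and 0.09). Of the 8 tested heat-inducible genes 7 were above 0 in the AEG-1ΔMAC liver and 8 in the AEG-1fl/fl liver, beside 69.0% and 68.0% of all genes, and their medians were 0.20 and 0.33.

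Hspb8, which is not counted among the heat-inducible genes here, was at 201, 234 and 253 CPM along the parts in AEG-1ΔMAC and at 142, 148 and 167 CPM in AEG-1fl/fl. Each part of AEG-1ΔMAC thus exceeded every part of AEG-1fl/fl, and the zone ratios were 0.34 (0.27 to 0.40) and 0.24 (0.16 to 0.32).

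**Figure D4:**
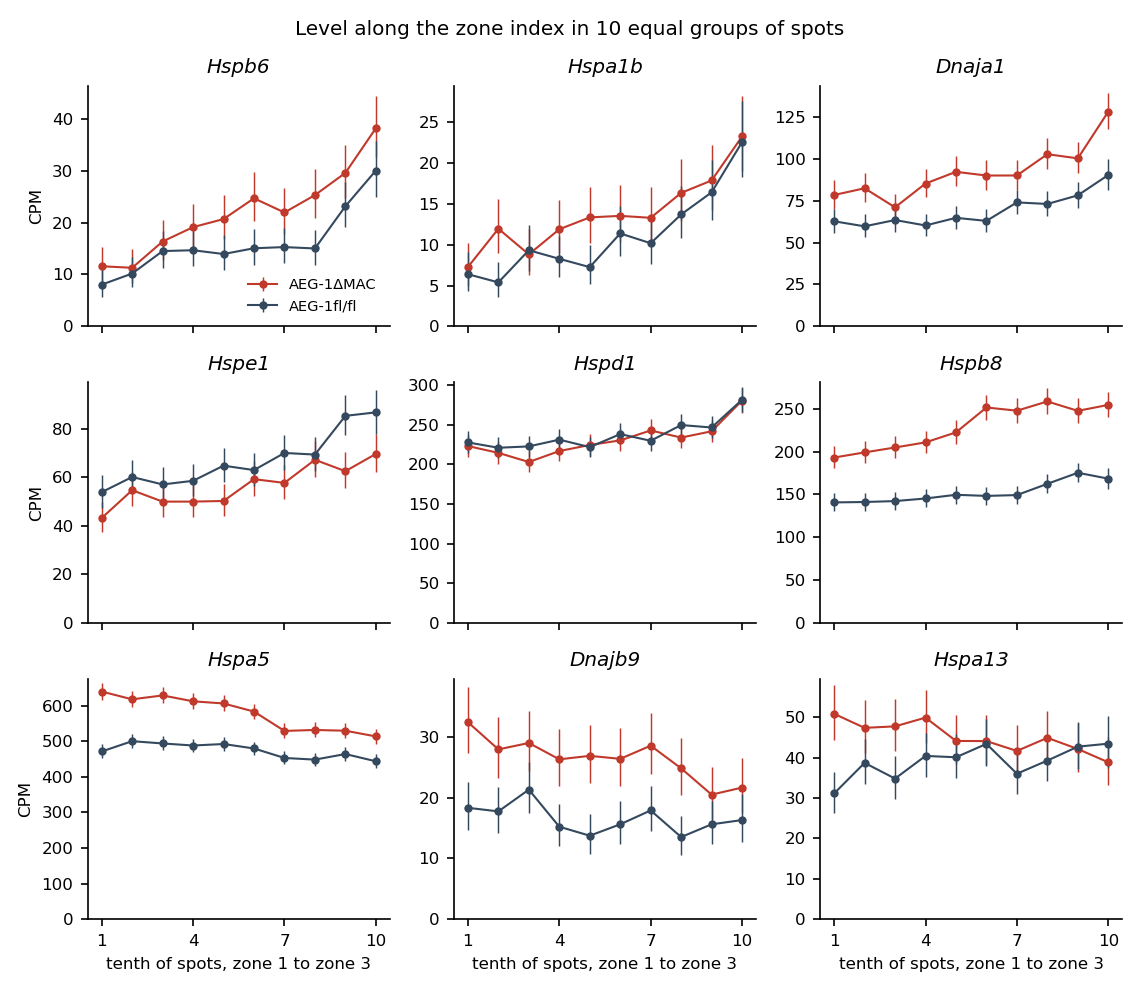
CPM of 9 members in 10 equal groups of spots ranked from the zone 1 end to the zone 3 end, in AEG-1ΔMAC (red) and AEG-1fl/fl (dark blue), with exact Poisson 95% intervals; each vertical axis starts at 0. Hspb6, Hspa1b, Dnaja1, Hspe1 and Hspd1 peak in the last group in both livers, and Hspa5 is lowest there.

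The ER stress-inducible members did not share the lean of the cytosolic members towards zone 3. In AEG-1ΔMAC 0 of 7 had a zone ratio above 0 (69.0% of all genes had), with a median of -0.17, and in AEG-1fl/fl 3 of 7 had (68.0% of all genes), with a median of -0.03. The count in AEG-1ΔMAC holds for summed UMIs, since with the mean of spot CPM Hspa13 was slightly above 0 (given below). The zone ratio was lower in AEG-1ΔMAC than in AEG-1fl/fl for all 7 (it was higher there for 3639 of all 6933 genes), and whether this difference exceeds the variation between mice cannot be told from 1 liver each. Hspa5 was at 626, 586 and 525 CPM from zone 1 to zone 3 in AEG-1ΔMAC, and at 488, 478 and 454 CPM in AEG-1fl/fl. Its zone ratios were -0.25 (-0.30 to -0.21) and -0.10 (-0.15 to -0.06), intervals that do not overlap. Between the livers Hspa5 differed by 0.36 log2 units in the zone 1 part, 0.29 in the middle and 0.21 in the zone 3 part.

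Dnajb9 was also higher on the zone 1 side, at 29.2, 27.4 and 22.8 CPM in AEG-1ΔMAC and at 18.8, 15.3 and 15.4 CPM in AEG-1fl/fl, with zone ratios of -0.36 (-0.57 to -0.15) and -0.29 (-0.53 to -0.04). Dnajb11 had zone ratios of -0.17 (-0.26 to -0.08) and -0.04 (-0.12 to 0.05). Hsp90b1 was flat, at -0.02 and 0.02, and Dnajc3, an ER J protein that also restrains the kinase PERK, was at -0.05 and -0.03. Over all 13 tested ER members 4 were above 0 in the AEG-1ΔMAC liver (30.8%, beside 69.0% of all genes) and 8 in the AEG-1fl/fl liver (61.5%, beside 68.0%), so that the share was near that of all genes in AEG-1fl/fl. The ER member with the highest zone ratio in AEG-1ΔMAC was Dnajc1 (0.35, 0.18 to 0.52, and 0.15, -0.01 to 0.30). Of the 13 tested ER folding genes outside the 2 families 4 were above 0 in the AEG-1ΔMAC liver and 7 in the AEG-1fl/fl liver, with median zone ratios of -0.05 and 0.02. Manf and Hyou1, the lowest of them in AEG-1ΔMAC, had zone ratios of -0.37 and -0.36 in AEG-1ΔMAC and of -0.13 and -0.01 in AEG-1fl/fl.

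Hspa13 (chr16:75745431-75767104), a microsomal HSP70-like ATPase, was the member whose zone ratios had intervals on opposite sides of 0 in the livers. In AEG-1ΔMAC it was at 49.8, 43.9 and 41.9 CPM from zone 1 to zone 3 (zone ratio -0.25, -0.40 to -0.09), and in AEG-1fl/fl at 34.8, 41.4 and 40.7 CPM (0.22, 0.06 to 0.39). The livers differed by 0.52 log2 units in the zone 1 part and by 0.09 and 0.04 in the middle and zone 3 parts. With the mean of each spot's own CPM in place of summed UMIs, the AEG-1ΔMAC zone ratio was 0.02, so its sign rests on the way spots are weighted. Dnajc5 was likewise at -0.06 with summed UMIs and at 0.30 with spot means in AEG-1ΔMAC.

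The genes with the lowest zone ratios in AEG-1fl/fl after Dnajb9 were Dnajc7, a J protein with TPR repeats that binds HSP70 and HSP90, at -0.21 (-0.37 to -0.06), and Dnajc13 at -0.12 (-0.38 to 0.13). In AEG-1ΔMAC they were at -0.11 and 0.17. Dnajc12, which was lower in AEG-1ΔMAC in every part, leaned to zone 3 in both livers (0.45, 0.19 to 0.70, and 0.28, 0.09 to 0.48).

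To see whether other liver cells carry these genes, the 5% of spots with the highest share of a marker list were compared with all other spots of the library. There were 107 such spots per list in the AEG-1ΔMAC liver and 127 in the AEG-1fl/fl liver, and such a spot still covers other cells, hepatocytes among them. In spots rich in markers of vessel wall, bile duct, Kupffer cell, stellate cell, endothelium or erythroid cells, 0 of 43 members were at least 1.5-fold higher in either liver, beside 6.78% and 4.13% of all genes in vessel wall spots of AEG-1ΔMAC and AEG-1fl/fl, 8.52% and 5.58% in bile duct spots, 1.62% and 2.13% in Kupffer cell spots, 1.57% and 1.28% in stellate cell spots, 0.851% and 1.27% in endothelium spots and 3.1% and 0.721% in erythroid spots. At least 1.5-fold lower were 3 pairs of member and list in each liver, described next. With the narrower 2% of spots, 11 of the 258 pairs of member and list were at least 1.5-fold higher in the AEG-1ΔMAC liver (7.34% of the pairs of all genes and lists) and 6 in the AEG-1fl/fl liver (5.62%), while 2 (1.83%) and 6 (1.75%) were as much lower. The share of member pairs that were higher was thus below that of all genes in both livers. The sum of the Kupffer cell markers was 541 CPM in the AEG-1ΔMAC liver and 522 CPM in the AEG-1fl/fl liver. The log2 ratios of these 4 markers ran from -1.38 to 0.21, with 1 above the median of all genes, so the sum does not describe each of them. The neutrophil markers, also myeloid, summed to 2.68 CPM in the AEG-1ΔMAC liver and 15.8 CPM in the AEG-1fl/fl liver.

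Hspb6 was lower in bile duct spots, at 11.8 against 22.4 CPM in AEG-1ΔMAC and 8.99 against 16.2 CPM in AEG-1fl/fl (log2 ratio -0.92, -1.54 to -0.36, and -0.84, -1.48 to -0.27), beside 1.83% and 1.31% of all genes that were as much lower. In vessel wall spots its ratios were -0.08 and -0.66 (1.21% and 0.606% of all genes lower). Of the bile duct spots 84.1% and 64.6% lay in the zone 1 part, where Hspb6 was lowest. With bile duct and vessel wall spots left out, the zone ratio of Hspb6 was 1.10 in the AEG-1ΔMAC liver and 0.90 in the AEG-1fl/fl liver, and that of Hspa1b 0.998 and 1.37. Spots outside the bile duct group also held 47.4 and 52.3 CPM of its markers, and the part of such cells in the zone ratios was not tested. Hspa1b was lower in Kupffer cell spots, at 8.64 against 14.0 CPM and at 6.99 against 11.1 CPM, on 18 and 14 UMIs (log2 ratio -0.70, -1.46 to -0.02, and -0.66, -1.54 to 0.10). In these spots 1.53% and 1.98% of all genes were lower. Hsph1 was lower in Kupffer cell spots of AEG-1fl/fl (-0.77, -1.37 to -0.22) but was at -0.18 in AEG-1ΔMAC. The zone 1 part held 50.5% of the Kupffer cell spots of AEG-1ΔMAC and 59.8% of those of AEG-1fl/fl. The zone 3 part held 18.7% and 10.2%. Both Hspa1b (9.61 and 7.07 CPM) and Hsph1 had their lowest level in the zone 1 part. How far zonation accounts for their lower values in Kupffer cell spots was not tested. Dnajc14 was lower in stellate cell spots, at -0.66 (-1.40 to -0.01) in AEG-1ΔMAC and at -0.52 (-1.31 to 0.17) in the AEG-1fl/fl section (0.966% and 1.37% of all genes). In endothelium spots 0 members were lower (0.822% and 1.1% of all genes), and in erythroid spots likewise 0 (0.332% and 0.721%).

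**Figure D5:**
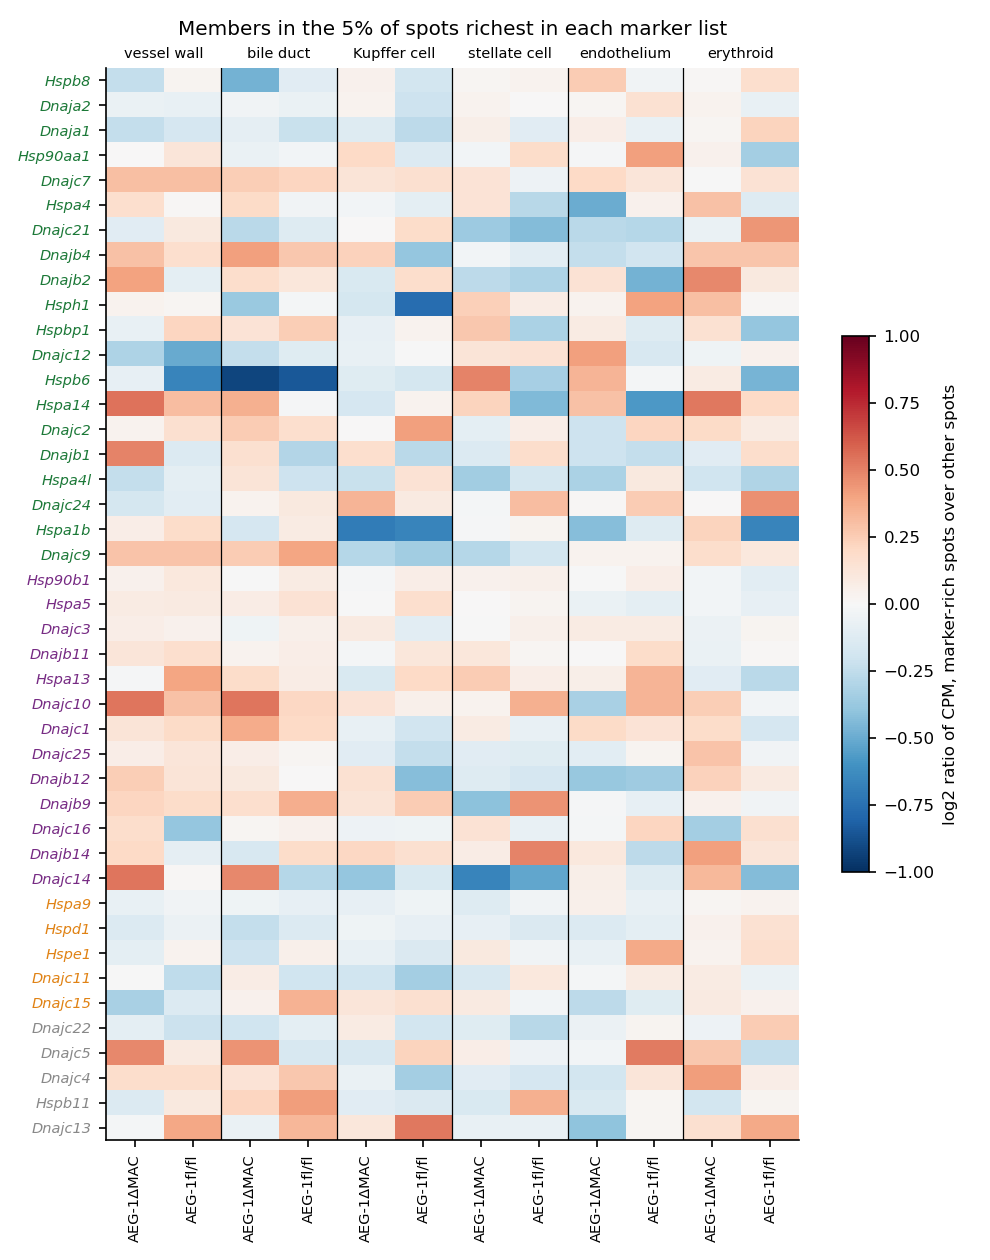
Log2 ratio of CPM of the 43 genes in the 5% of spots richest in each of 6 marker lists over the other spots, in AEG-1ΔMAC and AEG-1fl/fl; gene names are coloured green for cytosol and nucleus, purple for ER, orange for mitochondria and grey for other. The abundant genes stay near 0, and the blue cells of Hspb6 in bile duct spots are the lowest that both livers share.

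Dnajc10 and Hspa14, a ribosome-associated HSP70, had the highest mean ratios over both livers in vessel wall spots, and Dnajc10 had the highest in bile duct spots. In vessel wall spots Dnajc10 was at 54.5 against 37.6 CPM in AEG-1ΔMAC and at 47.9 against 39.1 CPM in AEG-1fl/fl (log2 ratio 0.53, 0.26 to 0.79, and 0.29, 0.00 to 0.57). In bile duct spots the ratios were 0.53 (0.25 to 0.80) and 0.21 (-0.06 to 0.47). Hspa14 was at 0.54 and 0.31 in vessel wall spots, and Dnajc7 at 0.30 in both livers. In Kupffer cell spots Dnajc13 had the highest mean ratio (0.11 and 0.53, with 50 and 42 UMIs), although in the narrower 2% of spots it was at 0.15 and -0.40. In stellate cell spots it was Dnajb14, a membrane-bound ER J protein, at 0.07 and 0.49, in endothelium spots Dnajc5 at -0.03 and 0.52, and in erythroid spots Hspa14 at 0.53 and 0.20.

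The 25 members under the minimum of 10 CPM reached at most 8.80 CPM in either liver. Dnajc5b, Dnajc5g, Dnajb8 and Hspb3 had 0 UMIs in both livers, which allows up to 0.0660 CPM in the AEG-1ΔMAC liver and 0.0596 CPM in the AEG-1fl/fl liver by the limit of 3 counts. Hspb7, a small heat-shock protein of heart and vessel muscle, had 29 UMIs in the AEG-1ΔMAC liver and 4 in the AEG-1fl/fl liver, a log2 ratio of 3.0 (1.5 to 4.97). Of the 29 UMIs 25 fell in the 107 vessel wall spots of AEG-1ΔMAC, and 1 of 4 in those of AEG-1fl/fl. Those spots held 371 CPM of vessel wall markers in the AEG-1ΔMAC liver and 204 CPM in the AEG-1fl/fl liver, and the part of this in the Hspb7 difference was not tested. Hspa12b, an HSP70-related protein known from endothelium, was at 7.19 against 2.92 CPM in vessel wall spots of AEG-1ΔMAC and at 7.20 against 3.36 CPM in those of AEG-1fl/fl (log2 ratio 1.30, 0.47 to 2.03, and 1.10, 0.29 to 1.83).

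Across single spots the variance of the members was compared with that of counting. In spots thinned to 10000 UMIs, the variance over the mean of the 12 members with at least 50 CPM ran from 0.93 to 1.09 (1 is pure counting). With few UMIs per spot (0.495 for Hsp90aa1 to 8.68 for Hsp90b1 in AEG-1ΔMAC), this ratio can lie near 1 despite a large excess. It was 1.07 for Hspe1 in AEG-1ΔMAC, so it does not show that the members vary by counting alone. Ranked by the excess over counting (squared coefficient of variation) among the 2181 genes of that level, Hspe1 was the highest of the 12 in both livers, at percentiles 94.5 in the AEG-1ΔMAC liver and 88.5 in the other. Dnajc22 stood at percentiles 87.8 and 56.6, Hsp90aa1 at 39.5 and 87.4, and Hspb8 at 42.0 and 81.0, so that these 3 ranked high in 1 liver. Dnajc3, at 8.39 and 31.3, was among the low ones. The median correlation over the 28 pairs of heat-inducible members in the thinned spots was 0.00515 in the AEG-1ΔMAC liver and 0.00725 in the AEG-1fl/fl liver, beside 0.00211 and 0.00215 for all pairs of the 2181 genes. In all spots, unthinned, it was 0.0124 and 0.0203, beside 0.0216 and 0.00892. Correlations of this size in such sparse counts are given as a description.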

How the data were processed

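Visium FFPE sections of 2 mouse livers were measured, 1 library per genotype. The deposited matrices hold raw UMI counts per gene and spot, which the authors made with Space Ranger 2.0.1 on mm10, with Seurat 4.3.0 also named in the submitters' processing notes. The assay reads probes and not whole transcripts, so levels were not compared between genes. Spots with at most 50000 UMIs and 100 to 7000 detected genes were kept, by the limits that the study states (2140 of 2149 and 2540 of 2543 deposited spots). The spot numbers that the paper gives for after its filter are those of the deposited matrices before this step, and 0 columns of per-sample values were left unused. UMIs were summed over spots and divided by the library total (CPM), so that Alb and other abundant genes move all other values, and a mean of at least 10 CPM was required (455 UMIs in AEG-1ΔMAC, 503 in AEG-1fl/fl).

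With 1 library per genotype no test across samples was made. Intervals are exact at 95%, Poisson for a level and Clopper-Pearson for a ratio, and cover counting error only. Marker-rich spots were those with the highest summed share of a marker list. Another scaling, other minimums, spots matched on UMIs, the mean of spot CPM, another zone index and the outer spots were tried as alternatives. Leaving out bile duct and vessel wall spots was added after the data were seen. Gene positions are those of GENCODE M21 (GRCm38), matched by Ensembl ID, and promoters those of RefSeq.

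Members, compartments and lists were chosen with earlier results of these data known. Named genes were a fixed set of members, the 5 largest genotype ratios each way, the 3 largest zone ratios each way and library, the 3 highest in each kind of marker-rich spots and the 3 largest genotype ratios each way of the other lists. Any further gene was named after its values were seen. A gene of the other lists is not reported here. Python 3.11.15, numpy 2.4.6, pandas 2.3.3, scipy 1.17.1, matplotlib 3.10.9, R 4.3.3 and edgeR 4.0.16 (TMM factors only) were used, and the ratio script was checked on simulated data.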

Additional observations from a re-analysis of the deposited data

Results flagged for a closer look

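The zone ratios of Hspa13, the microsomal HSP70-like ATPase, pointed in opposite directions in the livers, -0.25 for AEG-1ΔMAC against 0.22 for AEG-1fl/fl (log2, zone 3 part over zone 1 part). The difference between the livers was not tested, since each is 1 library, and with the mean of spot CPM the AEG-1ΔMAC value was 0.02.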

How the results depend on the processing

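No paired analysis was possible because the labels give no replicate numbers and each genotype has 1 library. Scaling set the height of the genotype ratios: with edgeR TMM factors the median of all genes was 0.02 and that of the members 0.0742 (ER members 0.0888), and with the 50 most abundant genes left out of the totals they were 0.00, 0.0562 and 0.0708. The ratios of Dnaja2, Dnajb11, Dnajb2, Hspa9, Dnajc4, Dnajc15 and Dnajc24, small and above 0 as CPM, were below 0 under both. Members at least 1.5-fold higher in AEG-1ΔMAC numbered 3 when not read against the median of all genes, and members at least 1.5-fold lower numbered 0 then, 0 at a mean of 50 CPM or more and 0 at a minimum of 2-fold. In the 2% of spots richest in markers, 11 of 258 member and list pairs were higher in AEG-1ΔMAC, 6 were higher in AEG-1fl/fl and 6 were lower in AEG-1fl/fl (7.34%, 5.62% and 1.75% of all gene and list pairs), where the 5% gave 0, 0 and 3. Thinning to 10000 UMIs took the median correlation of the heat-inducible pairs to 0.00515 (AEG-1ΔMAC) and 0.00725 (AEG-1fl/fl), and that of the ER stress-inducible pairs to 0.00624 and 0.00325. The 6 compartment medians of the zone ratio moved by less than their spread under every alternative run. The other zone values were less stable in the outer 10% of spots, where 31 were counted as moved and 41 as the same. With the landmark index 1 was counted as moved and 71 as the same. In the outer 10% of spots Hspa1b reached 1.68 and 1.82 and Hspb6 1.72 and 1.90. Members under 10 CPM rest on few UMIs, and the variation between mice cannot be given.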

Other observations

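Bile duct spots held an uneven share of Hspb2, a small heat-shock protein of muscle, at a log2 ratio of 3.04 (1.18 to 4.64) in AEG-1ΔMAC and 2.997 (1.46 to 4.38) in the AEG-1fl/fl section, on 5 and 7 UMIs. The share is not particular to bile duct spots, since the vessel wall spots held 4 of its 17 UMIs in AEG-1ΔMAC and 3 of 22 in AEG-1fl/fl. Dnajb13, a J protein of sperm flagella and cilia, had zone ratios of -1.35 (-2.86 to -0.03) and -1.62 (-2.98 to -0.43) on 37 and 55 UMIs, the opposite side to Hspb1 and Dnaja4.

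The neutrophil markers summed to 2.68 CPM in the AEG-1ΔMAC section against 15.8 CPM in AEG-1fl/fl (log2 ratio -2.56, -2.84 to -2.28). Hspbap1, which encodes a protein that binds HSP27, stood at 4.60 and 6.04 CPM (log2 ratio -0.39).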
